A study of Mus musculus with 8 samples.

Results

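Homologous recombination, Fanconi, mismatch repair and end joining genes were followed in the mRNA of mouse lung tumors with and without a guide RNA against *Setd2*. The set was 32 genes named by symbol for their known roles in repair, and all 32 were found among the 48709 genes of the count table. After a filter on low counts 31 of them were among the 14929 genes tested, and *Rad51b* was not. All 8 tumors came from mice of the K model, on a mixed B6J and 129S4vJae background, whose lung tumors arise once a cell has received Cre recombinase. For the 4 K-Ctrl tumors a lentiviral vector was given that delivers Cre, Cas9 and a control guide, sgGFP, and for the 4 K-Setd2KO tumors the same vector with a guide against *Setd2*, so that the K background, Cre and Cas9 are common to both groups. The labels call the tumors lung adenocarcinoma and the study describes low-grade adenomas matched for stage by histology. They were not sorted, so RNA of tumor cells and of the cells between them was measured together. The labels do not say whether the tumors came from separate mice, and p-values measure only the spread between these samples. The ages of the mice are not given in the labels. One label field describes extraction from cell lines while the design text describes frozen tumors, and this difference was not resolved.

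Homologous recombination copies a broken stretch of DNA from the intact sister chromatid, after the ends have been trimmed back and a recombinase has been loaded on the exposed strand by Brca2 and its partners. End joining instead ligates the ends directly, mismatch repair removes wrongly paired bases behind the replication fork, and the Fanconi proteins act on crosslinks between the strands. Setd2 places the trimethyl mark on lysine 36 of histone H3 along transcribed genes. The mismatch protein Msh6 binds that mark through its PWWP domain, and the resection factor encoded by *Rbbp8* is known to be recruited to it through the reader Ledgf, which links *Setd2* to repair at the level of protein recruitment. The comparison asks whether the mRNA of the repair genes themselves differed between the genotypes.

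Total counts per tumor lay between 5806599 (K-Setd2KO replicate 4) and 21290402 (K-Ctrl replicate 3). Levels are CPM, counts scaled to a common depth with TMM library sizes, and 3 counts corresponded to 0.139 to 0.514 CPM, a limit that covers counting error only. *Setd2* mRNA was 140 ± 8.81 CPM in control and 136 ± 15.5 CPM in knockout tumors (SD, n = 4 each), a log2 difference of -0.05 (SE 0.115, edgeR adjusted p 0.824). A guide edits the gene and need not lower its mRNA, so this value does not check the knockout. The labelled lung epithelium was present in all tumors, with *Sftpc*, the surfactant gene that defines alveolar type 2 cells, at 25160 ± 5046 and 25120 ± 3714 CPM. Marker genes of other cells moved with genotype. Over all tested genes, 7.74% were called lower and 4.97% higher (edgeR adjusted p under 0.05). At an unadjusted p under 0.05 the shares were 16.3% and 13.6%. Of 11 pan-leukocyte genes 9 were called lower in K-Setd2KO, and their summed level was 1190 to 2243 CPM in K-Ctrl against 654 to 846 CPM. The summed macrophage level was 2234 to 6486 against 456 to 2683 CPM over 12 genes (6 lower), the T cell level 61.7 to 168.8 against 9.78 to 52.8 CPM over 11 genes (1 lower) and the B cell level 183 to 2585 against 103 to 591 CPM over 9 genes (1 of 7 tested lower). *Chil3* alone gave 4596 of the 6486 CPM in K-Ctrl replicate 3. *Jchain* alone gave 2499 of the 2585 CPM in K-Ctrl replicate 2, and both genes overlapped between the groups. The median log2 fold changes of the macrophage, T cell and B cell lists were -1.63, -1.72 and -2.14. Of 10 endothelial genes 2 and of 9 fibroblast genes 2 were called lower, no neutrophil or erythroid gene was called by edgeR (1 of 6 higher and 5 of 5 lower at an unadjusted p under 0.05), and the median log2 fold changes of these 4 lists were -1.17, -0.91, 0.53 and -1.74. At that limit 8 of 12 macrophage, 6 of 11 T cell, 4 of 7 B cell, 6 of 10 endothelial and 3 of 9 fibroblast genes were lower. Of 12 epithelial genes 4 were called higher and 0 lower, and of 11 alveolar type 2 genes 2 were called higher and 1 lower. No marker in these lists was at 0 in all tumors. Of 38 proliferation genes 8 were called lower (21.1%) and 0 higher, and 22 (57.9%) were lower at an unadjusted p under 0.05. Their median log2 fold change was -0.83, and the summed level was 649 to 733 CPM in control tumors and 298 to 580 CPM in K-Setd2KO. The part of these markers in the results on repair genes was not tested, and in bulk tumors fewer cells of a type and less RNA per cell cannot be told apart. By *Xist* and the Y-linked genes, K-Ctrl held 1 female and 3 male tumors and K-Setd2KO 3 female and 1 male. K-Setd2KO replicate 2 was the lowest of the 8 tumors for 19 of the 32 repair genes (59.4%), while it was lowest for 15.4% of all tested genes, and values without it are given below.

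No repair gene passed the test over all genes. With an edgeR quasi-likelihood adjusted p under 0.05 as the call, 0 of 31 members were called lower and 0 higher, where 7.74% of all tested genes were called lower and 4.97% higher. At an unadjusted p under 0.05, 6 members (19.4%) were lower, namely *Brca1*, *Bard1*, *Rad54l*, *Exo1*, *Fanca* and *Prkdc*, beside 16.3% of all tested genes. *Xrcc5* alone (3.23% of members) was higher at that limit, beside 13.6% of all tested genes. The 7 members together stood beside 29.9% of all tested genes in either direction. DESeq2 called *Brca1* and *Bard1* lower and *Xrcc5* higher, in a test that called 10.6% of genes lower and 6.6% higher, and limma voom called *Brca1* lower, where 7.21% of genes were lower and 4.6% higher. The log2 fold change, here always K-Setd2KO over K-Ctrl, was negative for 21 members and positive for 10, and 7 of the 31 changed sign under another setting. Its median was -0.20 and it ranged from -1.64 to 0.65, beside a median of 0.03 over all genes tested. The median of members was -0.06 over the 23 with a mean count of at least 50, -0.11 with a length and GC trend removed, -0.11 without K-Ctrl replicate 2 and -0.12 without K-Setd2KO replicate 2. The 4 and 4 CPM values did not overlap for 7 members, beside 20.3% of all tested genes. These were *Brca1*, *Bard1*, *Rad54l*, *Exo1* and *Fanci* on the lower side (16.1%, against 11.2% of all tested genes) and *Rad52* and *Xrcc5* on the higher side (6.45%, against 9.06%).

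**Figure D1:**
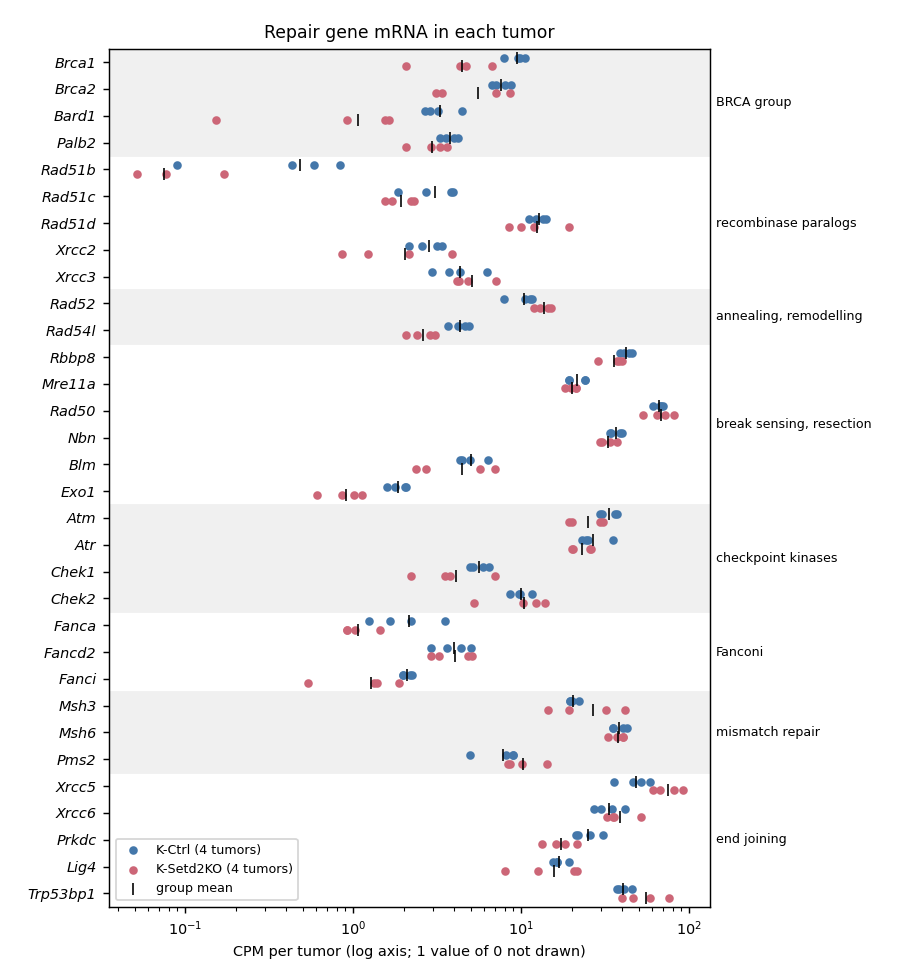
CPM of the 32 repair genes in each tumor on a log axis, with K-Ctrl tumors in blue, K-Setd2KO tumors in red, group means as bars and genes banded by role. *Brca1*, *Bard1*, *Rad54l*, *Exo1* and *Fanci* have every red point left of every blue one, whereas *Rad52* and *Xrcc5* have the reverse.

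**Figure D2:**
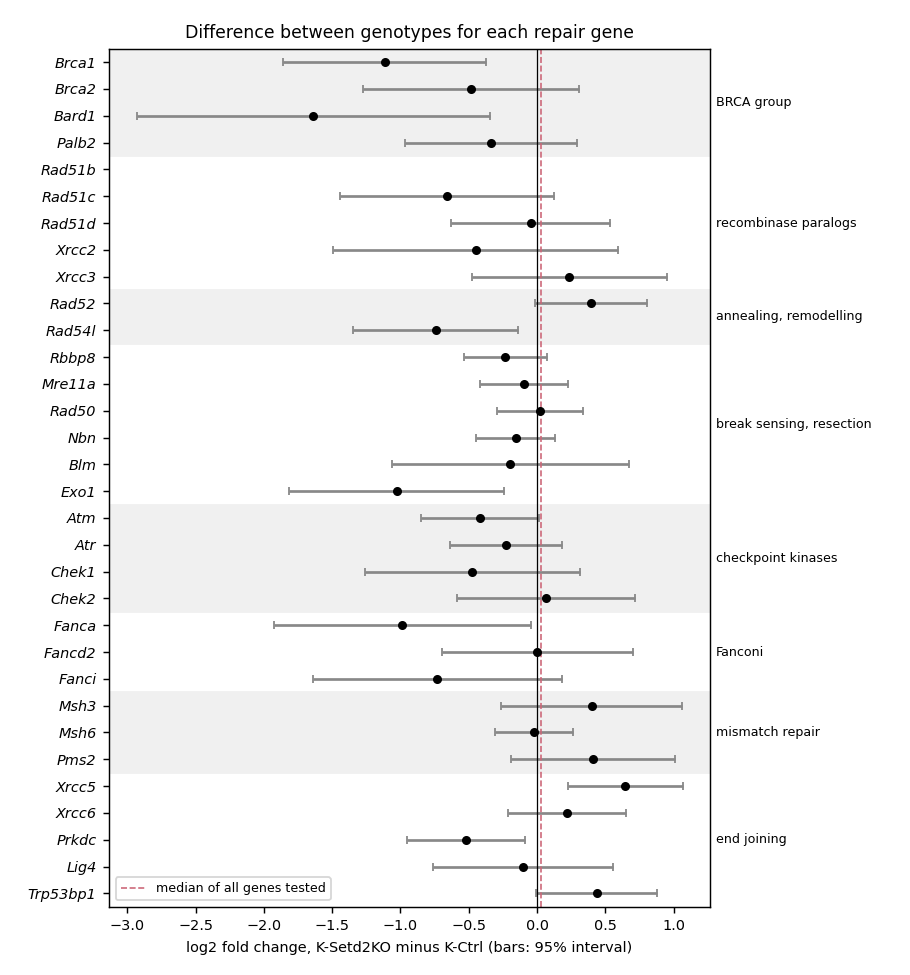
Log2 fold change of K-Setd2KO over K-Ctrl for the 31 tested repair genes with 95% intervals, where the dashed line is the median of all genes tested (0.03). The intervals of *Brca1*, *Bard1*, *Rad54l*, *Exo1*, *Fanca* and *Prkdc* lie below 0, that of *Xrcc5* lies above 0, and *Rad51b* has no value because it was not tested.

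The proximal promoters of 2 members without overlap on the lower side and 2 on the higher side are shown as examples, and members with negative and with positive log2 fold changes were found both with and without the word marked in them. RefSeq (GRCm38.p6) gave a promoter for 24 of the 32 genes. The 120 bases before the start site follow for *Brca1* (chr11:101551956-101552075, minus strand), *Rad54l* (chr4:116123691-116123810, minus strand), *Rad52* (chr6:119902578-119902697, plus strand) and *Xrcc5* (chr1:72307301-72307420, plus strand), each 5′ to 3′ with the word CCAAT, which the factor NF-Y binds, in capitals.
*Brca1*: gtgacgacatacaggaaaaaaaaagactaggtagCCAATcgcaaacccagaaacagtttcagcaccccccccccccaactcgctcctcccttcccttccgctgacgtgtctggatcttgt
*Rad54l*: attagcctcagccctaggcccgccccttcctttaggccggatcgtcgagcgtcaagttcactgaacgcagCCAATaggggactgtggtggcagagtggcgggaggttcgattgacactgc
*Rad52*: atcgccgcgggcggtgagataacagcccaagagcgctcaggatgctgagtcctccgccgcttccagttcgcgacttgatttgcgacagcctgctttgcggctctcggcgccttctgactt
*Xrcc5*: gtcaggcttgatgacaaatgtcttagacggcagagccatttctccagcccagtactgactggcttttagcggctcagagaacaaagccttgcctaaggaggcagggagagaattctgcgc
*Brca1* held the CCAAT word at base -86 and *Rad54l* at base -50, counted from the start site, and neither *Rad52* nor *Xrcc5* held it in these 120 bases, although *Xrcc5* had its reverse complement ATTGG further out, at -169. *Bard1* and *Fanci*, also lower without overlap, held no CCAAT in either orientation in the whole window, while *Pms2* (log2 fold change 0.41) held it at -153, -108 and -33 and *Xrcc3* (0.24) at 6 places, both orientations counted. Over 250 bases before to 50 after the start, on both strands, CCAAT was in 16 of 28 promoters of members (57.1%, some genes having more than 1 promoter), in 37.4% of all 32851 promoters in the table and in 74.2% of those of the proliferation list. The E2F words TTCGCGC and TTGGCGC, 1 of which *Brca1* carried on the reverse strand at base 22 after the start, were in 6 of 28 (21.4%), in 3.89% of all promoters and in 29.0% of the proliferation list. Read on the reverse strand TTGGCGC ends in CCAA and can share letters with CCAAT, which it does not in *Brca1*. The CHR words TTTGAA and TTCGAA, found in genes of late cell cycle, were in 10.7% of members' promoters, 19.2% of all and 48.4% of the proliferation list. Besides *Brca1*, the genes with an E2F word were *Rad51c* and *Lig4*, whose log2 fold changes were -0.66 and -0.10, and *Msh3* and *Pms2*, at 0.40 and 0.41. A match in letters is a description and not a bound site.

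The BRCA group, *Brca1*, *Brca2*, *Bard1* and *Palb2*, had the lowest median log2 fold change of the 8 role groups, at -0.80. The 3 Fanconi members were close to it, at -0.73. *Brca1* (chr11:101488764-101551955 on GRCm38, minus strand) encodes the ubiquitin ligase that favours recombination over end joining. It stood at 9.54, 9.92, 7.94 and 10.6 CPM in replicates 1 to 4 of K-Ctrl and at 4.31, 2.07, 4.71 and 6.67 CPM in K-Setd2KO replicates 1 to 4. Every K-Setd2KO tumor was below every control, and replicate 2 was lowest. The log2 fold change was -1.11 (SE 0.330, 95% interval -1.86 to -0.37), or 0.462 of the control level, with an edgeR p of 0.00782 and an adjusted p of 0.0557. Over all 18 fits the adjusted p of *Brca1* ran from 0.00714 with DESeq2 to 0.120 with a term for sex. It was 0.0491 without K-Setd2KO replicate 2 and 0.0403 without replicate 4. Within male tumors the difference of mean log2(CPM + 0.5) was -0.91 and within female tumors -1.22. The added 0.5 draws differences at low CPM toward 0, and these values are not fitted log2 fold changes.

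*Bard1* (chr1:71027498-71103146, minus strand), whose product pairs with Brca1, had 3.20, 4.45, 2.68 and 2.86 CPM in control tumors and 1.64, 0.153, 0.923 and 1.54 CPM in K-Setd2KO. The groups did not overlap, and the value of K-Setd2KO replicate 2 was 2 counts, under the limit of 3. The log2 fold change of -1.64 (SE 0.576, 95% interval -2.93 to -0.34) was the most negative among the 31 tested members, and the edgeR adjusted p was 0.0922 (0.0244 to 0.198 over 17 fits, with -1.26 and 0.0649 without K-Setd2KO replicate 2). *Brca2*, which loads the recombinase, had 8.74, 8.07, 7.06 and 6.69 CPM in control tumors and 3.39, 3.14, 7.11 and 8.56 CPM in K-Setd2KO. Here replicates 1 and 2 of K-Setd2KO were below all controls and replicates 3 and 4 were not, so the groups overlapped (log2 fold change -0.48, 95% interval -1.27 to 0.31, edgeR adjusted p 0.391). Its log2 fold change was -0.30 without K-Setd2KO replicate 1, -0.29 without replicate 2 and -0.76 without replicate 4. *Palb2*, the bridge between Brca1 and Brca2, ran from 3.28 to 4.19 CPM in control tumors and from 2.07 to 3.60 CPM in K-Setd2KO (log2 fold change -0.34). Its log2 fold change was -0.20 without K-Setd2KO replicate 2 and -0.18 with a term for sex. All 4 genes of the group were negative, and their summed CPM was 21.7 to 25.7 in K-Ctrl and 12.6, 7.42, 16.3 and 19.7 in K-Setd2KO replicates 1 to 4. In the same tumors the summed proliferation level was 479.5, 297.5, 337.1 and 579.5 CPM. K-Setd2KO replicate 2 was lowest in both and replicate 4 highest in both.

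The paralogs of the recombinase, which help it to form and hold its filament, overlapped between the groups. *Rad51b* had 7, 7, 18 and 1 counts in K-Ctrl and 1, 1, 0 and 1 counts in K-Setd2KO, under the filter, and no fold is given because the K-Setd2KO libraries were all under 3 counts. *Rad51c* had 3.82, 1.85, 2.72 and 3.93 CPM in control tumors and 1.70, 2.29, 2.21 and 1.54 CPM in K-Setd2KO, with an overlap through K-Ctrl replicate 2 (log2 fold change -0.66, 95% interval -1.44 to 0.12, edgeR adjusted p 0.238). With a term for sex its log2 fold change was -0.33. In means of log2(CPM + 0.5) its difference was -0.54 within male tumors and -0.02 within female tumors. The log2 fold changes of *Rad51d*, *Xrcc2* and *Xrcc3* were -0.05, -0.45 and 0.24, and none of these had an unadjusted p under 0.05. That of *Xrcc2* was -0.94 without K-Setd2KO replicate 3 and -0.23 without replicate 4. That of *Xrcc3* was 0.04 without K-Setd2KO replicate 3 and 0.47 without K-Ctrl replicate 2. Across the 4 tested paralogs the median was -0.25, a value that leaned on K-Setd2KO replicate 2. Without that tumor *Rad51c*, *Rad51d*, *Xrcc2* and *Xrcc3* had log2 fold changes of -0.76, 0.09, -0.27 and 0.26.

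The annealing factor *Rad52* and the remodelling motor *Rad54l* stood on opposite sides. *Rad54l* (chr4:116094264-116123690, minus strand) had 4.19, 4.62, 3.65 and 4.91 CPM in control tumors and 2.41, 2.07, 2.86 and 3.08 CPM in K-Setd2KO, with no overlap. Its log2 fold change was -0.74 (SE 0.268, 95% interval -1.34 to -0.14, edgeR adjusted p 0.0995), and 1184 of its 7706 exon bases lie opposite exons of *Lrrc41*. *Rad52* (chr6:119902698-119922828, plus strand), which anneals complementary strands, had 11.6, 11.3, 10.6 and 7.94 CPM in control tumors and 15.00, 12.01, 14.4 and 13.01 CPM in K-Setd2KO. The groups did not overlap, though the gap between the lowest K-Setd2KO tumor and the highest control was small beside the spread (log2 fold change 0.39, 95% interval -0.02 to 0.80, edgeR adjusted p 0.184). *Rad52* lies on chromosome 6, whose other 837 tested genes had a median log2 level of 0.31, -0.05, 0.32 and 0.36 in K-Setd2KO replicates 1 to 4 relative to K-Ctrl. The share of this chromosome-wide difference in the *Rad52* value was not tested. *Fancd2*, the other member on that chromosome, had a log2 fold change of 0.00.

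Among the genes of break sensing and resection, *Exo1* stood apart. This exonuclease, which also serves mismatch repair, had 1.60, 1.76, 2.03 and 2.05 CPM in control tumors and 1.13, 0.612, 1.015 and 0.856 CPM in K-Setd2KO, with no overlap. The log2 fold change was -1.03 (SE 0.349, 95% interval -1.81 to -0.24, edgeR adjusted p 0.0842), from 5 to 44 counts per tumor. *Rbbp8*, which starts resection, had 43.9, 45.6, 38.8 and 40.7 CPM in control tumors and 38.2, 37.0, 39.7 and 28.6 CPM in K-Setd2KO. K-Setd2KO replicate 4 was lowest and the groups overlapped (log2 fold change -0.23, 95% interval -0.54 to 0.07, edgeR adjusted p 0.281). Over 18 fits the log2 fold change of *Rbbp8* ran from -0.28 to -0.15. The 3 subunits of the complex that first binds broken ends had log2 fold changes of -0.09 for *Mre11a*, 0.02 for *Rad50* and -0.16 for *Nbn*. Their 95% intervals together spanned -0.45 to 0.34. The ratio of *Mre11a* to *Nbn*, each in CPM per kilobase of exon, was 0.251 ± 0.0102 in control tumors and 0.264 ± 0.0187 in K-Setd2KO (SD, n = 4 each). *Blm*, the helicase of Bloom syndrome, was 2.37 to 7.02 CPM in K-Setd2KO, wider than the 4.31 to 6.39 CPM of K-Ctrl.

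The checkpoint kinases signal from broken or stalled DNA to the cell cycle. *Atm*, which answers to broken ends, had 30.3, 37.3, 29.5 and 36.3 CPM in control tumors and 29.4, 19.3, 30.8 and 20.02 CPM in K-Setd2KO. Replicates 2 and 4 of K-Setd2KO were well below all controls, replicate 1 only just, and replicate 3 lay among them (log2 fold change -0.42, 95% interval -0.85 to 0.01, edgeR adjusted p 0.178). *Atr*, which answers to exposed strands at forks, and its effector *Chek1* had log2 fold changes of -0.23 and -0.47, and *Chek2*, the effector of Atm, had 0.06. That of *Chek1* was -0.27 without K-Setd2KO replicate 2 and -0.84 without replicate 4. Over 18 fits that of *Atr* ran from -0.30 to -0.01. The median of the 4 kinases was -0.32.

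In the Fanconi genes the low levels limit what can be seen. *Fanca*, a subunit of the core complex, had 1.66, 3.53, 2.22 and 1.25 CPM in control tumors and 1.44, 0.918, 0.923 and 1.03 CPM in K-Setd2KO. K-Ctrl replicate 2 was highest, and K-Setd2KO replicate 1 lay above K-Ctrl replicate 4, so the groups overlapped although the log2 fold change was -0.99 (95% interval -1.93 to -0.05, edgeR adjusted p 0.150). *Fanci*, a partner of Fancd2 in the clamp on damaged DNA, had 1.97, 2.19, 1.99 and 2.23 CPM in control tumors and 1.33, 0.535, 1.38 and 1.88 CPM in K-Setd2KO. The groups did not overlap, with K-Setd2KO replicate 4 close to the controls and replicate 2 far below them (log2 fold change -0.73, 95% interval -1.64 to 0.18, edgeR adjusted p 0.260). Its partner *Fancd2* ran from 2.91 to 5.04 CPM in control tumors and from 2.91 to 5.13 CPM in K-Setd2KO. Exons of *Fanca* and *Fanci* overlap those of *Zfp276* and *Polg* on the opposite strand over 920 and 921 bases, and whether reads were counted by strand is not stated.

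The mismatch repair members had a median log2 fold change of 0.40, with 2 of 3 positive and 0 at an unadjusted p under 0.05. *Msh6* (chr17:87975050-87990883, plus strand), the subunit that reads the histone mark, had 40.3, 35.2, 42.9 and 35.3 CPM in control tumors and 40.6, 37.2, 33.0 and 40.6 CPM in K-Setd2KO. The values of the groups interleaved, and the log2 fold change was -0.02 with a 95% interval from -0.31 to 0.26 (edgeR adjusted p 0.926). *Pms2*, an endonuclease of the pathway, had 8.19, 8.91, 8.91 and 4.998 CPM in control tumors and 8.37, 8.57, 14.3 and 10.1 CPM in K-Setd2KO (log2 fold change 0.41, 95% interval -0.19 to 1.009, edgeR adjusted p 0.336). K-Setd2KO replicates 3 and 4 were above all controls and K-Ctrl replicate 4 was below every other tumor, and the log2 fold change was 0.21 without K-Setd2KO replicate 3 and 0.25 without K-Ctrl replicate 4. *Msh3*, which joins in the recognition of larger loops, spread from 14.4 to 41.3 CPM in K-Setd2KO and from 19.6 to 21.97 CPM in K-Ctrl (log2 fold change 0.40, 95% interval -0.27 to 1.06). K-Setd2KO replicate 3 was the highest tumor for both *Msh3* and *Pms2*, and without it the log2 fold change of *Msh3* was 0.12. The ratio of *Msh3* to *Msh6* in CPM per kilobase was 0.201 ± 0.0149 and 0.278 ± 0.154 (SD, n = 4 each).

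Of the 5 end joining genes 0 were called in either direction, and at an unadjusted p under 0.05 *Xrcc5* was higher and *Prkdc* lower. *Xrcc5* (chr1:72307421-72394952, plus strand) encodes the larger subunit of the Ku ring that caps broken ends. It had 35.6, 58.4, 46.4 and 51.9 CPM in control tumors and 91.4, 67.2, 60.6 and 81.8 CPM in K-Setd2KO. All K-Setd2KO tumors were above all controls, with replicate 3 nearest to them. The log2 fold change was 0.65 (SE 0.186, 95% interval 0.23 to 1.07), or 1.57 times the control level, with an edgeR p of 0.00660 and an adjusted p of 0.0511. Over 18 fits the adjusted p ran from 0.0236 with DESeq2 to 0.161 with a term for sex, where the log2 fold change was 0.45. In means of log2(CPM + 0.5) the difference was 0.45 within male tumors and 0.44 within female tumors. *Xrcc6*, its partner in the ring, ran from 27.3 to 41.6 CPM and from 32.6 to 51.7 CPM (log2 fold change 0.22, 95% interval -0.22 to 0.65, and 0.05 without K-Setd2KO replicate 3). Exons of *Desi1* on the opposite strand cover 344 of its 4476 exon bases. The ratio of *Xrcc5* to *Xrcc6* in CPM per kilobase was 2.53 ± 0.357 in control tumors and 3.56 ± 1.07 in K-Setd2KO (SD, n = 4 each), and K-Setd2KO replicate 3 at 2.06 was below all controls.

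*Trp53bp1* and *Prkdc* act beside Ku. *Trp53bp1* shields broken ends from resection, against Brca1. It had 38.2, 45.7, 37.0 and 41.2 CPM in control tumors and 58.4, 39.8, 46.3 and 75.6 CPM in K-Setd2KO. K-Setd2KO replicate 2 lay among the controls and the other 3 above them, and the log2 fold change was 0.44 (SE 0.196, 95% interval -0.00 to 0.88, edgeR adjusted p 0.171), or 0.24 without K-Setd2KO replicate 4. Exons of *Tubgcp4* on the opposite strand cover 2130 of its 14164 exon bases. *Prkdc*, the catalytic kinase recruited by Ku, ran from 21.4 to 30.7 CPM in control tumors and from 13.4 to 21.6 CPM in K-Setd2KO (log2 fold change -0.52, 95% interval -0.96 to -0.09, edgeR adjusted p 0.104). In means of log2(CPM + 0.5) its difference was -0.08 within male tumors and -0.93 within female tumors. *Lig4*, the ligase of the pathway, had -0.10. The median of the 5 genes was 0.22.

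*Brca1* and *Trp53bp1*, whose products act against each other at broken ends, were set side by side after their values were seen, and the ratio is a description only, since *Brca1* alone did not overlap between the groups and *Trp53bp1* did. In CPM per kilobase the ratio of *Brca1* to *Trp53bp1* was 0.414, 0.360, 0.356 and 0.428 in replicates 1 to 4 of K-Ctrl and 0.123, 0.0862, 0.169 and 0.147 in those of K-Setd2KO. The means were 0.390 ± 0.0368 and 0.131 ± 0.0353 (SD, n = 4 each).

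**Figure D3:**
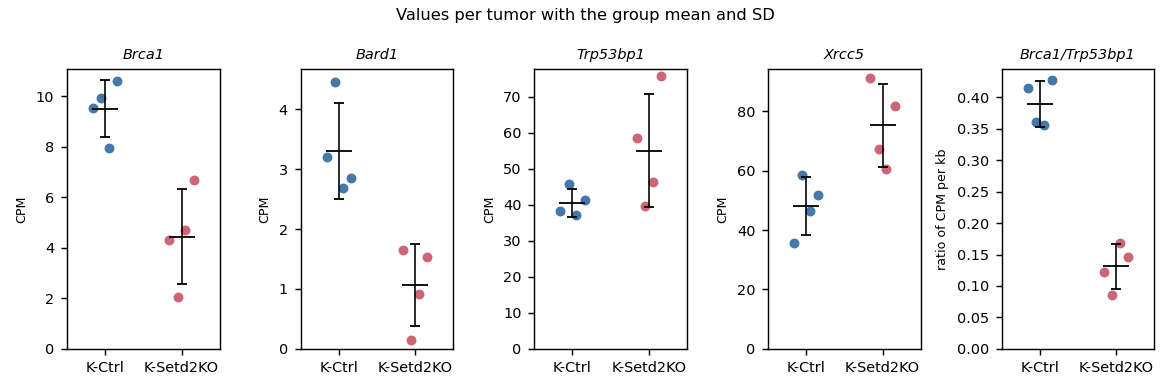
CPM of *Brca1*, *Bard1*, *Trp53bp1* and *Xrcc5* and the ratio of *Brca1* to *Trp53bp1* (CPM per kilobase of exon), with 1 point per tumor, the group mean as a long bar and the SD as whiskers, on linear axes from 0. The groups do not overlap for *Brca1*, *Bard1* and *Xrcc5* and overlap for *Trp53bp1*, and the ratio, chosen after the values were seen, lies between 0.356 and 0.428 in K-Ctrl and between 0.0862 and 0.169 in K-Setd2KO.

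Members were compared in level per kilobase of exon in K-Ctrl. *Xrcc5* was highest at 18.8 ± 3.79 CPM per kilobase, before *Nbn* (14.5 ± 1.23), *Rad50* (12.4 ± 0.666), *Rbbp8* (10.9 ± 0.799), *Msh6* (9.03 ± 0.901) and *Xrcc6* (7.46 ± 1.41). Among these, the ranges of mean ± 1 SD overlapped between *Xrcc5* and *Nbn*, *Rad50* and *Rbbp8*, and *Msh6* and *Xrcc6*. *Exo1* at 0.221 ± 0.0259, *Fanca* at 0.247 ± 0.113 and *Rad51b* at 0.273 ± 0.175 were at the lower end and overlapped by the same measure, and *Brca1* was at 1.11 ± 0.133 (SD, n = 4 each). *Bard1* was at 0.583 ± 0.142 CPM per kilobase, so the 3 members with the most negative log2 fold changes lay in the lower part of this order.

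The K-Setd2KO tumors differed from each other. Relative to the K-Ctrl mean, the mean log2 level of all members was -0.23, -0.58, -0.09 and -0.11 in K-Setd2KO replicates 1 to 4. That of the BRCA group was -0.77, -1.59, -0.62 and -0.37, that of the proliferation list -0.53, -1.24, -1.07 and -0.23, and that of pan-leukocyte genes -1.20, -1.50, -1.73 and -1.62. On the control side, K-Ctrl replicate 2 was highest of all tumors for 8 members (25.0%, against 12.9% of all tested genes). Replicates 1 and 4 of K-Setd2KO were the higher pair of the proliferation list. In the BRCA group replicate 3 lay above replicate 1, and the leukocyte order was different again. Without K-Setd2KO replicate 2 *Brca1* was called lower as the only member, at a smaller log2 fold change of -0.88. The other members without overlap kept their direction, with log2 fold changes of -0.65 for *Rad54l*, -0.88 for *Exo1*, -0.47 for *Fanci*, 0.44 for *Rad52* and 0.69 for *Xrcc5*. Within male and within female tumors, each a comparison of 1 tumor with 3, differences were taken in means of log2(CPM + 0.5). They were -0.49 and -0.78 for *Rad54l*, -0.65 and -0.75 for *Exo1*, -0.44 and -0.70 for *Fanci* and 0.51 and 0.23 for *Rad52*. The added 0.5 draws differences at low CPM toward 0, so these values do not compare with the fitted log2 fold changes.

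**Figure D4:**
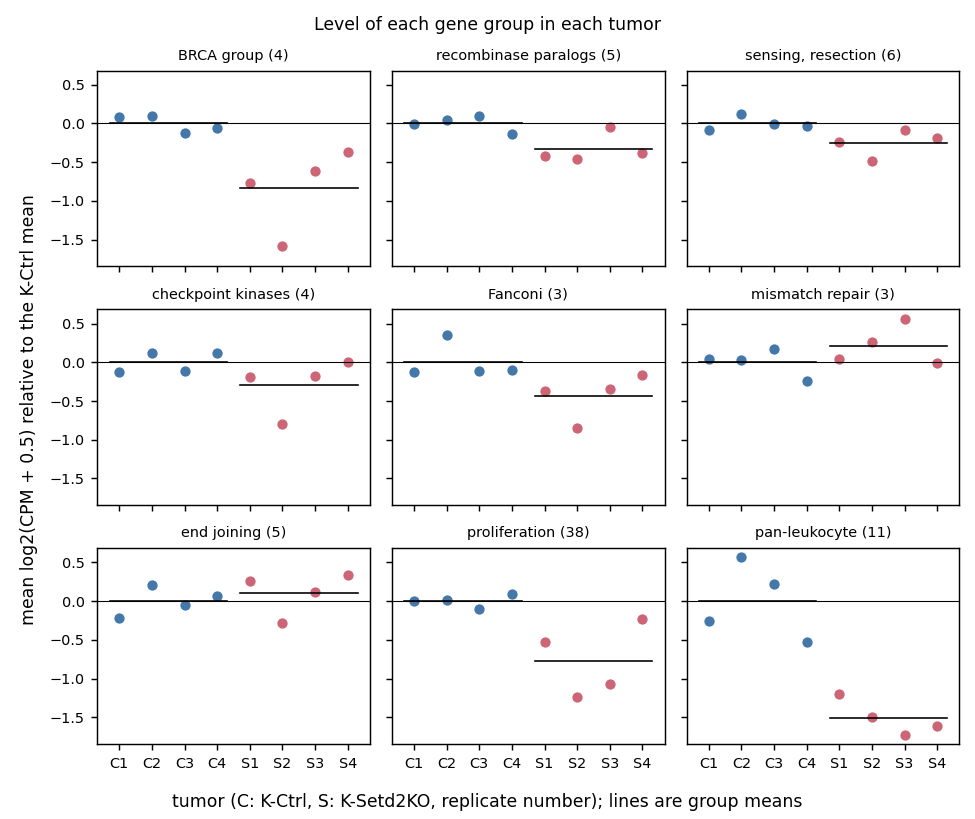
Mean log2(CPM + 0.5) of each role group except that of *Rad52* and *Rad54l*, and of the proliferation and pan-leukocyte lists, in each tumor. Values are relative to the K-Ctrl mean, with the number of genes in parentheses and group means as lines. In the BRCA group all K-Setd2KO tumors lie below the controls and replicate 2 lies lowest at -1.59, while the K-Setd2KO means of mismatch repair and end joining are 0.22 and 0.11.

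Other genes of these pathways, in lists drawn up with earlier results of these data known, were read in the same test. Of 39 further recombination genes 2 were called lower and 1 higher (5.13% and 2.56%, beside 7.74% and 4.97% of all tested genes), with a median log2 fold change of -0.01. At an unadjusted p under 0.05, 9 were lower and 5 higher (23.1% and 12.8%, beside 16.3% and 13.6%). *Wrn*, the helicase of Werner syndrome, fell from 33.6 ± 4.41 to 21.3 ± 2.42 CPM (log2 fold change -0.65, edgeR adjusted p 0.0231). *Polq*, the polymerase of end joining by short homologies, fell from 3.24 ± 1.15 to 1.26 ± 0.346 CPM (log2 fold change -1.36, edgeR adjusted p 0.0481). *Sem1*, a small acidic partner of Brca2 that is also a proteasome subunit, rose from 163.9 ± 18.7 to 239.7 ± 35.7 CPM (log2 fold change 0.55, edgeR adjusted p 0.0368) and lies on chromosome 6. Of 14 further Fanconi genes 0 were called by edgeR in either direction. At an unadjusted p under 0.05 there was 1 on either side (7.14% each, beside 16.3% and 13.6% of all tested genes). The smallest p there was that of *Usp1*, which removes ubiquitin from the clamp, at 81.6 ± 5.62 and 62.6 ± 6.73 CPM (log2 fold change -0.38, edgeR adjusted p 0.0612). The median was -0.02.

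Of 13 further mismatch repair genes 2 were called lower (15.4%, beside 7.74% of all tested genes) and 0 higher. The same 2 were the genes at an unadjusted p under 0.05, where 16.3% of all tested genes were lower. The log2 fold change was negative for 12 of the 13, for 37 of the 38 proliferation genes and for 7060 of all 14929 tested genes. The median of the 13 was -0.13. *Pcna*, the sliding clamp, fell from 88.6 ± 9.38 to 46.2 ± 5.65 CPM (log2 fold change -0.94, edgeR adjusted p 0.00643), and *Lig1*, the ligase of the replication fork, from 28.0 ± 5.95 to 14.9 ± 3.35 CPM (log2 fold change -0.92, edgeR adjusted p 0.0268). Both also serve DNA replication, as do the *Rfc* and *Pold* genes that make up most of this list, so its counts do not describe mismatch repair alone. Of 17 tested further end joining genes 0 were called by edgeR in either direction, and their median was 0.12. At an unadjusted p under 0.05, 1 was lower and 1 higher (5.88% each, beside 16.3% and 13.6% of all tested genes). *Polm*, a gap-filling polymerase, had the smallest p, with 9.37 ± 2.21 and 15.7 ± 3.50 CPM (log2 fold change 0.75, edgeR adjusted p 0.0659).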

How the data were processed

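Mouse lung tumors (4 K-Ctrl, 4 K-Setd2KO), flash-frozen per the design text although 1 label field speaks of cell lines, were profiled by poly(A) mRNA sequencing with a stranded kit and paired-end reads. The authors deposited 1 table of raw counts per gene, not normalized, with 1 column per tumor. The submitters' processing notes name STAR 2.5.2b, featureCounts 1.5.0-p1 and GRCm38.p4. The annotation release and strand setting of the counting are not given in the sources used here, so reads of overlapping genes on opposite strands cannot be told apart. Symbols came from GENCODE on GRCm38 and matched 48349 of 48709 identifiers (99.26%). No row lacked a gene, and 20284 genes were at 0 in all tumors.

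Genotypes were compared with edgeR 4.0.16 in R 4.3.3 (filterByExpr, TMM, robust quasi-likelihood fit and test, Benjamini-Hochberg adjustment over 14929 genes). SE was the absolute log2 fold change over the square root of F. CPM used TMM-scaled totals of tested genes. The study used DESeq2, run here (1.42.0) as an alternative beside limma voom (3.58.1), other scalings, no filter and a mean count of at least 50, a replicate block, a sex term, removal of a length and GC trend, and leaving out each tumor. The fit was also run on simulated data, whose outcome is not given here and lends no support to the results above. The lowest chi-square per degree of freedom between replicates (genes with at least 20 counts) was 30.5, so no library was a copy. The common biological coefficient of variation was 0.337. Promoters came from RefSeq.

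The members and lists were chosen with earlier results of these data known. All 32 members are named. Every tumor's value is given for members called, without overlap or with the smallest p of their role, and for *Brca1*, *Brca2*, *Rbbp8*, *Msh6* and *Trp53bp1*. From each pathway list come the called genes, at most the 4 with the smallest p, or else the gene with the smallest p. A few items of the study are not reported here.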

Additional observations from a re-analysis of the deposited data

Results flagged for a closer look

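*Xrcc6* stood at 51.7 CPM in K-Setd2KO replicate 3, while the other 3 tumors of the group lay between 32.6 and 35.6 CPM. The gap was 0.842 of the range of the group, over the critical value of the Dixon test for 4 samples. It was 1 of 64 groups of 4 values examined, where 1 in 20, or 3.2, would be found by chance.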

How the results depend on the processing

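The number of repair genes called higher was 0 and became 1 (*Xrcc5*) with the DESeq2 Wald test, with no low-count filter and with the length and GC trend removed. The number called lower was 0 and became 2 with DESeq2, 1 with limma voom, and 0 to 1 without 1 tumor (1 without K-Setd2KO replicate 2 or 4), while the number called higher stayed at 0 to 0 in those 8 fits. Over all genes, 742 were called higher and 1155 lower, against 1234 and 1977 with DESeq2, 403 and 938 with the replicate block, 453 higher with a sex term, and 224 to 856 higher and 539 to 1284 lower without 1 tumor. Both were lowest without K-Ctrl replicate 3. The median log2 fold change of tested members was -0.28 to -0.11 without 1 tumor. It was -0.06 over the 23 members with a mean count of at least 50 and -0.11 with the length and GC trend removed, and among the fits without 1 tumor it was nearest 0 without K-Ctrl replicate 2 (-0.11) or K-Setd2KO replicate 2 (-0.12). With the replicate block 0 members were called and their median was -0.22. The correlation of deviations of same-numbered tumors was -0.0742 to 0.191, over 0.1 for 1 of 4 pairs, and 2 of 8 tumors correlated best with their own number, so the numbers were not taken to pair the tumors. Of 519 values of members under the 17 other settings, 484 kept sign and side, 8 newly passed the threshold and 27 reversed, over 7 members. With other tools, filters, scalings or terms the reversed log2 fold changes were 0.0085 for *Rad51d* (sex term), -0.0119 for *Rad50* (voom), -0.0352 and -0.0020 for *Chek2* (voom, replicate block), and -0.0015, -0.0146, -0.0264, -0.0172, -0.0004 and -0.0191 for *Fancd2* (RLE, DESeq2, voom, mean count of at least 50, replicate block, sex term). Over the 8 fits without 1 tumor the values ran from -0.3303 to 0.0906 for *Rad51d*, -0.0831 to 0.1143 for *Rad50*, -0.4927 to 0.0083 for *Blm*, -0.0999 to 0.2815 for *Chek2*, -0.1344 to 0.1339 for *Fancd2*, -0.0641 to 0.0402 for *Msh6* and -0.2972 to 0.1114 for *Lig4*. The cause was not tested. Depth limits *Rad51b*, *Bard1*, *Exo1*, *Fanca* and *Fanci* most.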
